A study of Mus musculus with 6 samples.

Results

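Messenger RNA of the insulin-like growth factor (IGF) system was measured by sequencing poly(A)-selected RNA of MC3T3-E1 cells, an established mouse line with features of osteoblasts. The genes described are the ligands Igf1 and Igf2, the receptor Igf1r, the binding proteins Igfbp2, Igfbp3, Igfbp4, Igfbp5 and Igfbp6, and the pappalysins Pappa and Pappa2. They were taken by gene name from a table of expected counts, in which all 10 were found among 54433 genes. The tested libraries, FR1 to FR3, came from cells labelled as resistant to 30 ppm fluoride, with a fluoride gradient of 30 ppm as their treatment. Per the labels' protocols wild-type cells were kept under a gradient of 10 ppm until their proliferation was normal, and the step was repeated until resistance was reached. The control libraries, WT1 to WT3, held RNA of the wild-type line in the same kind of medium (DMEM) with no fluoride treatment named. The growth protocol gives 10% fetal bovine serum for the line, so both groups of cells were grown with serum, which itself supplies IGFs. The series title speaks of fluoride-tolerant mice, whereas the sample labels describe the cultured line, and the labels are followed here. Resistance, exposure to fluoride and the time in culture that the repeated steps took cannot be told apart in this design. Whether each library had a culture of its own, and how many clones the FR cells descend from, is not stated, so the p-values measure only the spread between these libraries.

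IGF1 and IGF2 are small secreted proteins that act mainly through the IGF1 receptor, a tyrosine kinase at the cell surface, and osteoblasts both make them and respond to them. Secreted IGF-binding proteins hold the ligands, which can keep them from the receptor or store them in the bone matrix. Pappalysins are secreted metalloproteinases that cut binding proteins and so free the ligand: PAPPA (pappalysin 1) cuts mainly IGFBP4, and PAPPA2 cuts IGFBP3 and IGFBP5. In bone this local system promotes growth and survival of osteoblasts and formation of matrix.

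In FR cells the mRNAs of the ligand Igf1, of 2 binding proteins and of both pappalysins were at least 5-fold lower than in WT cells, while the receptor mRNA fell only slightly and Igfbp6 mRNA rose. Igf1 fell to 0.691 ± 0.180 CPM (counts relative to a library of fixed size) in FR, against 42.2 ± 3.21 CPM in WT (SD, n = 3 each). Pappa2 averaged 14.6 ± 0.675 CPM in FR and 212 ± 4.20 CPM in WT (SD, n = 3 each), and Igfbp4 averaged 19.7 ± 1.95 CPM in FR and 122 ± 1.49 CPM in WT. Of the 10 genes, 8 could be tested with edgeR, of which 6 were lower and 2 higher in FR at an adjusted p under 0.05, and 2 had too few counts. This share has to be read against the whole table, where 70.1% of 14889 tested genes passed, 34.6% of them higher and 35.5% lower. A fall of at least 2-fold was found for 5 members, against 11.4% of all tested genes, and a rise of at least 2-fold for 1 member, against 7.4% of all tested genes. CPM of the groups did not overlap for any of the 8 tested members, as for 72.4% of all tested genes. Of the 8, 6 passed the filter on low counts in both groups, Igf2 passed it through the FR libraries alone and Igfbp5 through the WT libraries alone. Those last 2 could be tested only because one group was higher, so the counts above are a description.

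**Figure D1:**
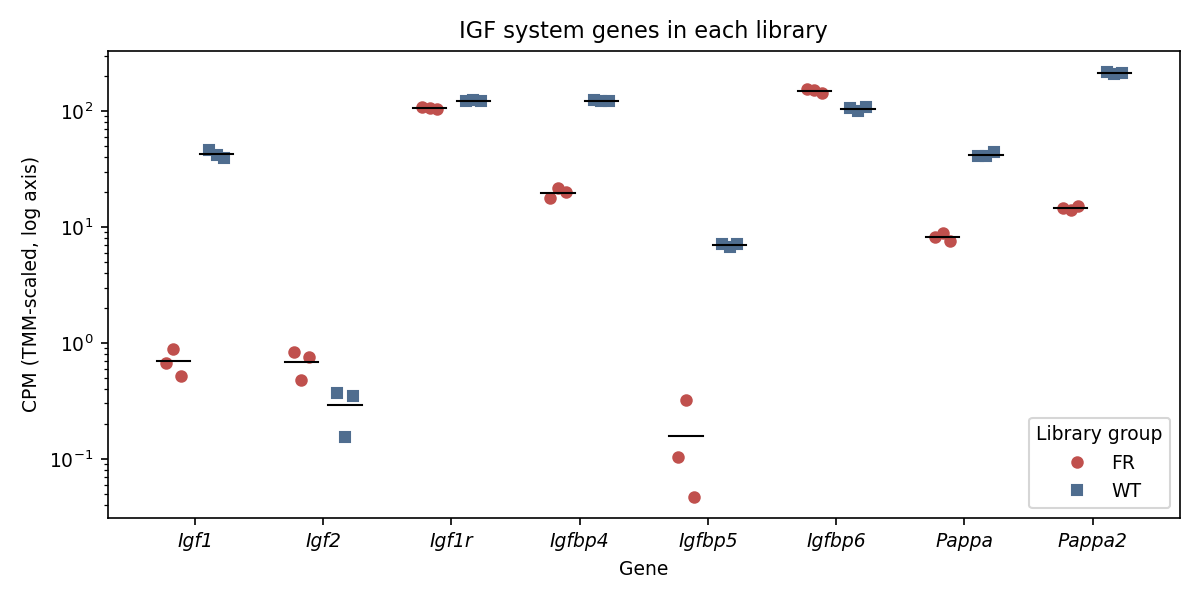
CPM (vertical log axis) of the 8 tested IGF system genes in each FR library (circles, left of each pair) and WT library (squares, right), with bars at the group means. Igf1 lies below 1 CPM in each FR library and above 39 CPM in each WT library, whereas Igf1r lies between 104 and 124 CPM in all 6.

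The table summed to between 19246119 and 25185697 counts in the FR libraries and to between 25700497 and 27140662 in the WT libraries. At these depths 3 counts corresponded to between 0.12 and 0.156 CPM in FR and to between 0.11 and 0.117 CPM in WT, which covers counting error only. The osteoblast identity of the cells was partial in both groups: Runx2, a transcription factor of the lineage, averaged 57.2 CPM in FR and 69.8 CPM in WT, and Col1a1, a chain of type I collagen, 635 CPM in FR and 5055 CPM in WT. The maturation markers Sp7, Alpl and Bglap had at most 2 counts in any FR library and at most 8 in any WT library, and Ibsp had 0 in each. All 6 tested genes of the 10 osteoblast markers were lower in FR. Their summed levels, 4171 to 4217 CPM in FR and 16276 to 16560 CPM in WT, were mostly Col1a1 and Col1a2 (3104 CPM in FR, 9282 CPM in WT). Of all tested genes 35.5% were lower and 34.6% higher, which is the background for this and the marker counts below. Of 6 macrophage and leukocyte markers 2 were higher (Csf1r and Cd68) and 1 lower (Lyz2) in FR, with sums of 10.3 to 12.2 CPM in FR and 6.56 to 7.99 CPM in WT and Tyrobp at 0. Of 6 smooth muscle markers 1 was higher (Des) and 2 lower (Acta2 and Tagln), with sums of 170 to 172 CPM in FR and 590 to 597 CPM in WT. Of 6 chondrocyte markers 2 were lower (Sox9 and Col2a1) and none higher, with sums of 48.4 to 51.5 CPM in FR and 70.9 to 73.9 CPM in WT and Acan and Col9a1 at 0. Of 6 skeletal muscle markers 1, Des, was tested and higher, and the sums were 6.08 to 6.83 CPM in FR and 1.61 to 1.91 CPM in WT, with Myod1 and Pax7 at 0. Of 6 adipocyte markers Fabp4 was higher and Lpl lower, with sums of 1.16 to 2.08 CPM in FR and 1.54 to 2.17 CPM in WT. Of 6 endothelial markers Emcn was lower, with sums of 2.12 to 2.44 CPM in FR and 3.34 to 3.82 CPM in WT. None of 6 epithelial markers passed the test, and their sums were 0.520 to 0.999 CPM in FR and 0.585 to 0.699 CPM in WT, with Cldn4 and Krt5 at 0. The part of these differences in the results was not tested, and in such bulk samples fewer cells of a type and less RNA per cell cannot be told apart.

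The windows before the annotated starts of 4 members are shown: Igf1, Pappa2 and Igfbp4, which fell, and Igfbp6, which rose less than Igf2. They are 250 bases long, end just before the start, run 5′ to 3′ on the gene's strand, and come from RefSeq on the build GRCm38.p6, whereas the counts were made on GRCm39. Capitals mark matches, on either strand, to TATAAA (the TATA box), CCAAT (the CCAAT box), GGGCGG (the GC box), TGTGGT (the core bound by RUNX factors) or TTGCNNAA (a C/EBP-type site), none of which overlapped here.
Igf1, chr10:87860861-87861110, plus strand: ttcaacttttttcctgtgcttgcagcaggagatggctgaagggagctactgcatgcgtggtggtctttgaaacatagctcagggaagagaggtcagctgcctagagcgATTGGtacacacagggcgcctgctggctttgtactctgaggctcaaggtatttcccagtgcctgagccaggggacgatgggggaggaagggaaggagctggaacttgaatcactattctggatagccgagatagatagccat
Pappa2, chr1:158958176-158958425, minus strand: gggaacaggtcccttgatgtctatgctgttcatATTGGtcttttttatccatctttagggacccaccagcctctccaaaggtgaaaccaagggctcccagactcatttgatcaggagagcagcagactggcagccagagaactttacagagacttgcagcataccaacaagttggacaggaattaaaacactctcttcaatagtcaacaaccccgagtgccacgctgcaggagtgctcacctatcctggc
Igfbp4, chr11:99040994-99041243, plus strand: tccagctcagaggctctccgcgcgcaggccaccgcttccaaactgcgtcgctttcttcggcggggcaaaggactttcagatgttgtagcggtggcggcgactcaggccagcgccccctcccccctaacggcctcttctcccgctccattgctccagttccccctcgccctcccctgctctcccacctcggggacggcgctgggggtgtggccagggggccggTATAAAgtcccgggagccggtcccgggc
Igfbp6, chr15:102143936-102144185, plus strand: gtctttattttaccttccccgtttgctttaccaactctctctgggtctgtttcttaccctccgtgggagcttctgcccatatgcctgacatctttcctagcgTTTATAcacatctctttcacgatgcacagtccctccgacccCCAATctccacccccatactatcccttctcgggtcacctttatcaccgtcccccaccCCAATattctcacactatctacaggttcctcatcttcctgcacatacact

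The Igf1 and Pappa2 windows each held 1 CCAAT box, which 33.8% of all 32851 windows in the table held. The Igfbp4 window held 1 TATA box, beginning 28 bases before the start, and no other match, while 12.4% of all windows held a TATA box. The Igfbp6 window held 2 CCAAT boxes and 1 TATA box, which began 148 bases before the start and matched on the opposite strand. The bases after this start were not found in an annotated transcript of Igfbp6, whereas those of Igf1, Pappa2 and Igfbp4 were found in theirs. The Igfbp6 start is therefore less certain. No match to the GC box (32.7% of all windows), the RUNX core (14%) or the C/EBP-type site (9.56%) lay in these 4. This depends on the choice of genes: windows not shown held GC boxes for Igf2, Igf1r and Igfbp2 and a RUNX core for Igfbp3. The Igfbp4 window was rich in G and C (69.2%, with 22 CpG), against 52.8% for Igf1, 49.6% for Igfbp6, 49.2% for Pappa2 and a median of 52.4% over all windows. A match is a description of the letters, not evidence of binding, and gene counts do not tell which start a gene uses. Of the 10 members 9 had at least 1 window.

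Of the ligands, Igf1 (ENSMUSG00000020053) had 13, 22 and 11 counts in FR1, FR2 and FR3, against 1243, 1077 and 1004 counts in WT1, WT2 and WT3. Scaled to depth these were 0.675, 0.879 and 0.519 CPM in FR and 45.5, 41.8 and 39.2 CPM in WT. Every FR library lay far below every WT library, yet above the level of 3 counts. On the log2 scale the fold change was −5.90 ± 0.21 (SE; edgeR adjusted p = 9.31e-26), which ranked 70 from the lowest among 14889 genes. Summed over the libraries of a group, Igf1 was 60.1-fold lower in FR, with a 95% exact interval of 45.0 to 82.3 for counting error. Igf1os, annotated on the opposite strand across part of Igf1, had no count in FR and 1 count in WT.

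Igf2 (ENSMUSG00000048583), the ligand that dominates in fetal tissues, was close to the detection limit in both groups. It had 16, 12 and 16 counts in FR and 10, 4.01 and 9 counts in WT, which corresponded to 0.831, 0.479 and 0.756 CPM in FR and to 0.366, 0.155 and 0.351 CPM in WT. The FR libraries were all higher, by a small margin. The log2 fold change was 1.20 ± 0.45 (SE; edgeR adjusted p = 0.0174). Igf2 passed the filter on low counts through the FR libraries alone, so this p-value is a description only. The summed ratio of FR to WT was 2.30, with a 95% exact interval of 1.36 to 3.99. This interval covers counting error only and leaves out the spread between libraries. This call was lost with DESeq2 (adjusted p = 0.0639), without FR1 (0.0746), without FR3 (0.0647) and without WT2 (0.111) in edgeR, and under the stricter filter the gene was not tested. Igf2os, which lies on the opposite strand, had 2, 0 and 1 counts in FR and 0, 2.14 and 0 counts in WT. H19, the noncoding neighbour of Igf2, and Ins2 had 0 counts in each library.

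Igf1r (ENSMUSG00000005533), the receptor through which both ligands act, was at 108, 106 and 105 CPM in FR and at 122, 124 and 121 CPM in WT. The groups did not overlap, but the difference was small. The log2 fold change was −0.21 ± 0.03 (SE; edgeR adjusted p = 1.84e-06), a 1.15-fold fall, and it lay between −0.23 and −0.20 under the 15 alternatives tried. Igf2r, which carries IGF2 to lysosomes without signalling as Igf1r does, fell to 259 ± 5.62 CPM in FR, against 513 ± 14.3 CPM in WT (SD, n = 3 each; log2 fold change −0.98 ± 0.03 SE). Insr, the insulin receptor, did not pass the test (log2 fold change 0.09 ± 0.05 SE, edgeR adjusted p = 0.125), and Insrr had no count in FR and 1 count in WT.

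Among the binding proteins, Igfbp4 (ENSMUSG00000017493), an inhibitor of IGF action and the main substrate of PAPPA, was at 17.6, 21.5 and 20.1 CPM in FR, against 123, 121 and 121 CPM in WT. The groups stood well apart, with little spread within either. The log2 fold change was −2.62 ± 0.05 (SE; edgeR adjusted p = 1.60e-26), a 6.14-fold fall. Its expected counts were not whole numbers in any library, so part of its reads was assigned by estimation between it and other loci.

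Igfbp5 (ENSMUSG00000026185), the binding protein known for its storage in bone matrix, had 2, 8 and 1 counts in FR and 195, 173 and 181 counts in WT. It was thus near the detection limit in FR and at 7.15, 6.71 and 7.06 CPM in WT. The log2 fold change of −5.34 ± 0.45 (SE; edgeR adjusted p = 3.35e-16) rests on 11 counts in all 3 FR libraries together, and without FR2 it was −6.46. Igfbp5 passed the filter on low counts through the WT libraries alone, so this p-value is a description only. From the summed counts the gene was 41.5-fold lower in FR, with a 95% exact interval of 23.0 to 83.7 for counting error only. Igfbp2, its neighbour in gene order on chromosome 1, had 0, 1 and 0 counts in FR and 0, 2 and 0 in WT and was not tested.

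Igfbp6 (ENSMUSG00000023046), which prefers IGF2 over IGF1, was at 154, 152 and 143 CPM in FR and at 106, 100 and 107 CPM in WT. All FR libraries were higher than all WT libraries. The log2 fold change was 0.52 ± 0.04 (SE; edgeR adjusted p = 1.30e-13), a 1.43-fold rise. Igfbp3, the main IGF carrier of blood, had 0 counts in each FR library and 2, 0 and 0 in WT, and its neighbour in gene order, Igfbp1, had 1 count in FR and 2 in WT. Igfbp7, a related protein that binds IGFs weakly, fell to 12.8 ± 1.57 CPM in FR, against 110 ± 2.87 CPM in WT (SD, n = 3 each; log2 fold change −3.10 ± 0.06 SE). Igfals, a partner of Igfbp3 in blood, and Igfbpl1, a relative of unsettled role, had at most 2 counts in any library and were not tested.

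Of the pappalysins, Pappa2 (ENSMUSG00000073530) was at 14.6, 13.9 and 15.3 CPM in FR and at 216, 208 and 211 CPM in WT. The 2 groups were each tight and far apart. It fell 14.6-fold (log2 fold change −3.86 ± 0.05 SE; edgeR adjusted p = 2.88e-32). Pappa (ENSMUSG00000028370) was at 8.21, 8.79 and 7.51 CPM in FR and at 40.9, 40.5 and 43.9 CPM in WT. This was a 5.09-fold fall (log2 fold change −2.35 ± 0.08 SE; edgeR adjusted p = 5.46e-22), again with no overlap. 1600012P17Rik, annotated within Pappa2 on the same strand, had 0 counts in each FR library and 3, 7 and 5 counts in WT, few beside the 5363 to 5907 counts of Pappa2 in WT.

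**Figure D2:**
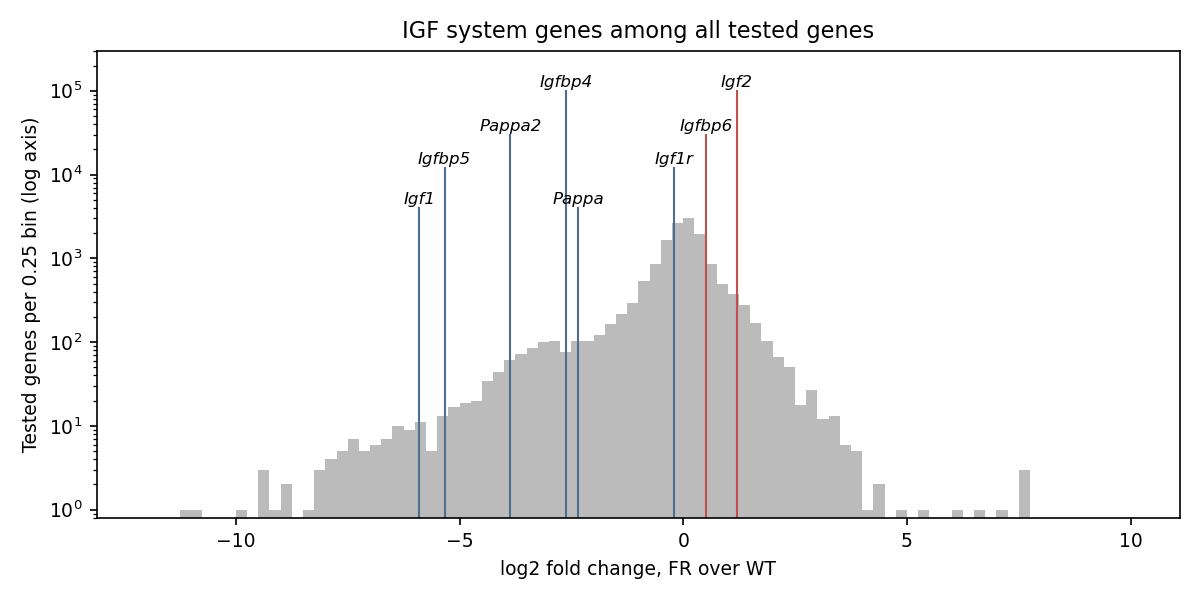
Histogram of log2 fold changes, FR over WT, of all 14889 tested genes (grey, bins of 0.25, log axis), with vertical lines at the 8 tested IGF system genes (blue lower, red higher in FR). Igf1 at −5.90 and Igfbp5 at −5.34 lie in the sparse lower tail, and Igf1r at −0.21 lies near the centre.

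By their place among all 14889 log2 fold changes, Igfbp5 ranked 92 from the lowest, Pappa2 259, Igfbp4 682, Pappa 780 and Igf1r 5153. From the highest, Igf2 ranked 818 and Igfbp6 2394. The 5 members with falls of at least 2-fold were thus spread over the lower tail, and neither rise was extreme.

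Levels of different genes were compared per length, as CPM per kilobase of the deposited gene length. In FR the order was Igfbp6 (135 ± 5.42 CPM per kilobase), Igf1r (9.31 ± 0.139), Igfbp4 (5.15 ± 0.509), Pappa2 (1.53 ± 0.0709), Pappa (0.741 ± 0.0582), Igf1 (0.302 ± 0.0787) and Igf2 (0.146 ± 0.0392; SD, n = 3 each). In WT it was Igfbp6 (94.0 ± 3.30), Igfbp4 (31.8 ± 0.388), Pappa2 (22.3 ± 0.441), Igf1 (18.4 ± 1.40), Igf1r (10.7 ± 0.118), Pappa (3.79 ± 0.169) and Igfbp5 (1.16 ± 0.0381). Per length, Igf1r was therefore below Igfbp4, Pappa2 and Igf1 in WT and above all 3 in FR. Its place in WT depends on this scaling. Without division by length, Igf1r in WT (122.5 CPM) was above Igf1 (42.2), close to Igfbp4 (121.7) and below Pappa2 (212). Neighbours in the orders per length did not overlap between libraries, apart from the genes near the detection limit. Igfbp5 and Igfbp2 overlapped in FR, Igf2 and Igfbp2 in WT, and Igfbp2 and Igfbp3 in both groups.

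Per length, the summed level of the binding proteins was 143, 143 and 134 CPM per kilobase in FR and 129, 123 and 129 CPM per kilobase in WT. Without division by length the direction turned, with sums of 172, 174 and 163 CPM in FR and 237, 228 and 235 CPM in WT, so whether the sum was higher or lower in FR depends on this scaling. Per length, the makeup of the sum also differed: Igfbp6 held 96.3 ± 0.424% of the sum in FR and 74.0 ± 0.626% in WT, and Igfbp4 held 3.68 ± 0.412% in FR and 25.0 ± 0.602% in WT (SD, n = 3 each). Igfbp5 held 0.0184 ± 0.0167% in FR and 0.914 ± 0.00827% in WT, and without FR2 its FR share was 0.00898%. Without division by length Igfbp4 held 11.6% in FR and 52.2% in WT. The summed ligands were at 0.447 ± 0.0531 CPM per kilobase in FR and at 18.5 ± 1.40 in WT, and the summed pappalysins at 2.27 ± 0.0133 in FR and at 26.1 ± 0.471 in WT (SD, n = 3 each). Igf1 made up 62.6, 79.1 and 58.6% of the ligand sum in FR and 99.6, 99.8 and 99.6% in WT. The FR share rests on few counts, 13, 22 and 11 for Igf1 and 16, 12 and 16 for Igf2. It also depends on the division by length, without which the FR means were alike (0.691 CPM for Igf1, 0.689 CPM for Igf2). In WT Igf1 was far above Igf2 without that division too (42.2 against 0.291 CPM).

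**Figure D3:**
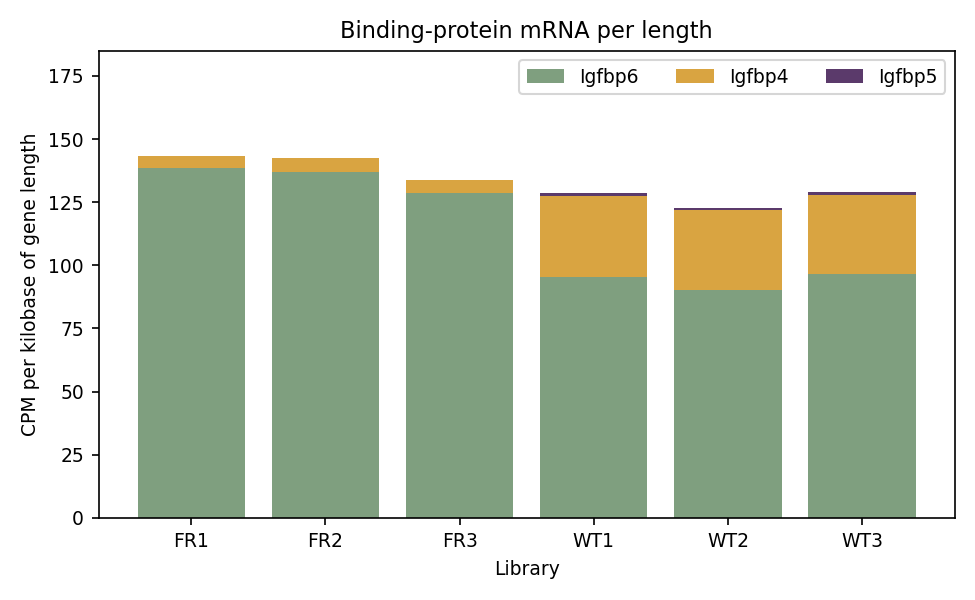
Stacked bars of Igfbp6, Igfbp4 and Igfbp5 mRNA in CPM per kilobase of gene length for each FR library (left) and WT library (right). Igfbp4 makes up 3.68% of the bars in FR and 25.0% in WT; the bars reach 134 to 143 in FR and 123 to 129 in WT, whereas the sums without length are 163 to 174 CPM in FR and 228 to 237 CPM in WT.

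Within libraries, 5 ratios of levels per length were compared, chosen after the values were seen. Pappa2 over Pappa was 2.06, 1.83 and 2.35 in FR and 6.13, 5.96 and 5.58 in WT. Igf2r over Igf1r was 3.16, 3.12 and 3.12 in FR and 5.45, 5.15 and 5.55 in WT. Igf1r over Insr was 2.30, 2.24 and 2.06 in FR and 2.70, 2.69 and 2.68 in WT. Igfbp4 over Pappa, an inhibitor over the protease that cuts it, was 6.18, 7.03 and 7.69 in FR and 8.69, 8.59 and 7.93 in WT. Igfbp6 over Igfbp4 averaged 26.4 ± 3.27 in FR and 2.96 ± 0.0961 in WT (SD, n = 3 each). Each of the 5 separated the groups without overlap, as did the CPM of 72.4% of all tested genes. Each gave p = 0.1 in a two-sided exact permutation test over libraries, adjusted or not, the smallest p that 3 against 3 allow. Any separation without overlap gives this p, and the ratios were chosen by their values, so no conclusion is drawn from the test. The change was 1.51 on the log2 scale downward for Pappa2 over Pappa but only 0.28 downward for Igfbp4 over Pappa, so Igfbp4 and Pappa fell by similar amounts.

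Genes around the members were taken from 8 lists. Of their 75 genes 64 could be tested, of which 36 were lower, 17 higher and 11 not called in FR with edgeR, and the median log2 fold change was −0.23, against 0.0029 over all tested genes. In percent, 82.8 of the tested list genes were called, 56.3 lower and 26.6 higher, against 70.1, 35.5 and 34.6 of all tested genes. Among other IGFBP proteases and pappalysin inhibitors, 5 of 8 were tested. Stc2, which encodes stanniocalcin-2, an inhibitor of pappalysins, rose to 13.8 ± 1.23 CPM in FR, against 6.84 ± 0.431 CPM in WT. The serine protease gene Htra3 fell to 0.904 ± 0.152 CPM in FR, against 12.8 ± 0.585 CPM in WT, and the metalloprotease gene Adam12 to 3.10 ± 0.333 CPM in FR, against 16.6 ± 1.25 CPM in WT (SD, n = 3 each). Htra1 and Adam9 did not pass, at log2 fold changes of −0.01 ± 0.05 and −0.02 ± 0.03 (SE). Stc1 and Prg2, which encode other pappalysin inhibitors, had 0 counts in each library.

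Of the growth hormone axis, which drives Igf1 transcription in liver, 4 of 8 tested genes fell and 2 rose, a called share of 75%, against 70.1% of all tested genes. The receptor gene Ghr fell to 11.7 ± 0.531 CPM in FR, against 29.2 ± 1.17 CPM in WT, and Socs2, a feedback inhibitor of that receptor, to 2.58 ± 0.406 CPM in FR, against 12.3 ± 0.332 CPM in WT. The transcription factor gene Stat5b rose to 62.7 ± 2.44 CPM in FR, against 44.8 ± 0.555 CPM in WT (SD, n = 3 each), and Cish, another feedback gene of cytokine receptors, rose by 0.63 ± 0.25 on the log2 scale (SE; edgeR adjusted p = 0.0251). Cebpd, a transcription factor known to act on the Igf1 promoter in rat osteoblasts, did not pass (log2 fold change −0.05 ± 0.07 SE), nor did the related Cebpb (−0.34 ± 0.19 SE). In the list of the Igf2 locus and IGF2 mRNA-binding proteins, the locus genes H19, Ins2 and Igf2os had too few counts to be tested. Of the 4 tested genes of this list, Plagl1, an imprinted zinc finger gene outside the Igf2 locus, fell (−1.26 ± 0.07 SE). Igf2bp1 (0.17 ± 0.04), Igf2bp3 (0.10 ± 0.04) and Igf2bp2 (−0.07 ± 0.03), which bind and stabilise mRNAs, moved little though each passed.

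Of 22 adaptors and kinases downstream of the receptor, all tested, 12 fell, 8 rose and 2 were not called, and the list's median was −0.15 on the log2 scale. The risers were 36.4% of the list, near the 34.6% of all tested genes, and the fallers 54.5%, against 35.5% of all tested genes. Pik3r1, the main regulatory subunit of phosphoinositide 3-kinase, fell to 56.8 ± 1.98 CPM in FR, against 150 ± 0.932 CPM in WT, the 1 change of at least 2-fold in this list. Pik3r3, another regulatory subunit, fell by 0.72 ± 0.04 on the log2 scale, while the catalytic subunit gene Pik3cb rose (0.43 ± 0.04 SE) and so did Mtor, the kinase of growth control (0.66 ± 0.04 SE). Of 11 brakes on receptor signalling 5 fell, 3 rose and 3 were not called (median −0.13), a called share of 72.7%, against 70.1% of all tested genes. Grb10, an adaptor that inhibits the receptor, rose to 540 ± 11.7 CPM in FR, against 354 ± 9.49 CPM in WT, and Inppl1, a lipid phosphatase, to 215 ± 1.33 CPM in FR, against 137 ± 3.48 CPM in WT (SD, n = 3 each). Trib3, a pseudokinase that binds AKT, fell (−0.62 ± 0.04 SE), as did Tsc2, an inhibitor of the mTOR pathway (−0.24 ± 0.04 SE).

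FoxO transcription factors are held out of the nucleus when IGF signalling activates AKT. Of 11 tested FoxO factors and textbook FoxO targets 9 fell, 1 rose and 1 was not called (median −0.55 on the log2 scale). Of all tested genes 35.5% fell and 34.6% rose, which is the background for this count. Foxo4 was the gene not called (−0.08 ± 0.05 SE). Sesn3, a stress-response gene, fell to 46.6 ± 1.39 CPM in FR, against 145 ± 4.15 CPM in WT, and the factor gene Foxo3 to 66.3 ± 2.27 CPM in FR, against 136 ± 3.63 CPM in WT (SD, n = 3 each). Bcl2l11, which encodes the pro-apoptotic protein BIM, rose (0.26 ± 0.08 SE; edgeR adjusted p = 0.00539).

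**Figure D4:**
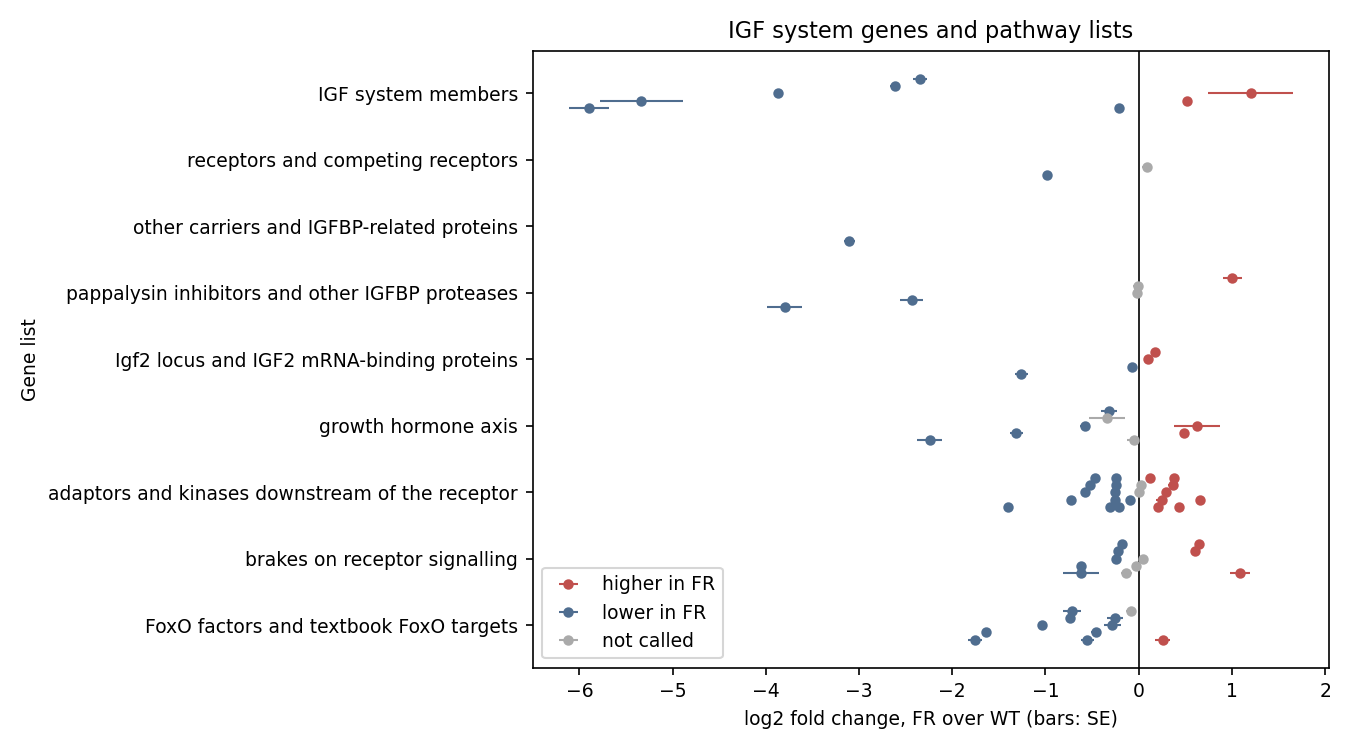
Log2 fold changes, FR over WT, with SE bars, of the tested IGF system genes (top row) and of the tested genes of 8 related lists (rows below), coloured by the edgeR call. The members reach −5.90, whereas the 22 adaptors and kinases lie between −1.40 (Pik3r1) and 0.66 (Mtor).

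The genes whose profile over the 6 libraries was nearest to that of Igf1, by root mean square difference of centred log2 CPM among genes with a mean of at least 5 CPM, were Srpx (0.278), Col8a2 (0.304) and Samd12 (0.338). Col8a2 encodes a chain of a short-chain collagen. Srpx averaged 1.36 ± 0.361 CPM in FR and 61.5 ± 0.465 CPM in WT (SD, n = 3 each). Nearest to Igf2, the member with the largest rise, were Nupl1 (0.241), Elavl2 (0.263) and Prr5 (0.303), of which Nupl1 did not pass the test itself (edgeR adjusted p = 0.162).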

How the data were processed

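Poly(A)-selected RNA of 6 libraries, 3 FR and 3 WT, was sequenced as paired-end reads, and the labels do not state whether strand was kept. The submitters' processing notes name fastp, HISAT, RSEM and the build GRCm39, with versions and annotation release not given in the sources used here. The authors deposited expected counts per gene, not scaled to depth, of which 85.9% were whole numbers (within 1e-06). RSEM divides reads that match several genes by estimation. The deposited table also holds group means, which were not used, and another gene length column, whose values are whole bases.

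Expected counts were rounded, filtered with filterByExpr (14889 genes kept) and scaled with TMM factors in edgeR 4.0.16 (R 4.3.3). The comparison of FR with WT used the quasi-likelihood test in its robust form, with Benjamini-Hochberg adjustment over all tested genes and a threshold of 0.05. Standard errors are Wald errors of the fit with the posterior quasi-dispersion, and CPM use the TMM factors. Between libraries of 1 group the chi-square over its degrees of freedom was 2.34 to 3.37, above the 1 of pure sampling noise, so none was a copy. The steps were also run on simulated counts with the same spread for every gene and few changed genes, a simpler case than these data. Alternatives used DESeq2 1.42.0 and limma 3.58.1 (voom), other scalings and filters, the replicate number as a block, the test without its robust form, and each library left out. GENCODE M21 and RefSeq tables of GRCm38 served for gene order, overlaps and the printed windows only. Figures were drawn with matplotlib 3.10.9.

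The members and lists were chosen with earlier results of these data known, so their counts are descriptions. All members are named. Of each list, up to 2 genes with the smallest adjusted p in each direction are named, with all genes of the lists of receptors and of other carriers, neighbours of members, and chosen cell type markers. The 3 genes nearest in profile are given for the members with the largest rise and fall, after adding 0.05 CPM. Other genes, namely the other markers, Htra1, Adam9, Stc1, Prg2, H19, Ins2, the genes that overlap a member, Cebpb, Cebpd and Foxo4, were named after their values were seen.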

Additional observations from a re-analysis of the deposited data

How the results depend on the processing

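The number of genes called, 10440 of 14889 with the settings reported, lay between 9518 (DESeq2) and 10931 (no filter) under 15 alternatives. The 8 called members stayed between 7 and 8 and the 53 called pathway genes between 50 and 54. Igf2 and Igfbp5 are among these members though they passed the filter through FR or WT alone, so the member count is a description. Apart from the Igf2 call described above, which 4 alternatives ended without turning its direction, each tested member kept its direction and stayed past the threshold in each alternative that tested it. No alternative moved the median of all genes by more than 0.0238 on the log2 scale. With libraries left out, log2 fold changes lay between −6.15 and −5.73 for Igf1, −6.46 and −4.93 for Igfbp5, −2.70 and −2.56 for Igfbp4, −2.42 and −2.29 for Pappa, −3.90 and −3.83 for Pappa2, 0.48 and 0.55 for Igfbp6, and 0.90 and 1.42 for Igf2.

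The summed binding-protein level changed direction without division by gene length, an alternative added after seeing the data: its log2 ratio of FR to WT was 0.14 per length and −0.46 without, and 0.12 to 0.17 per length with 1 library left out. Without division by gene length, Igfbp6 held 88.3% of the binding-protein sum in FR and 44.8% in WT, Igfbp4 held 11.6% in FR and 52.2% in WT, and Igfbp5 held 0.0910% in FR and 2.99% in WT, because Igfbp6 is the shortest of these genes. The Igfbp5 share in FR was 0.00898 to 0.0247% with 1 FR library left out, the lowest without FR2. With the replicate number as a block, 10292 genes, 8 members and 53 pathway genes were called, and no member's call changed. Same-numbered libraries did not deviate together (correlations of −0.0280 to −0.0039 across genes), and none correlated best with its own number. With no filter, Igfbp2 and Igfbp3 also did not pass (adjusted p = 0.823 and 0.387). Depth limits Igf2 in both groups and Igf1 and Igfbp5 in FR, where few counts set the fold.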

Other observations

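Outside the members, 76 genes carried a term with the phrase insulin-like growth factor in the deposited annotation, and 40 could be tested. Of these 25 were lower, 11 higher and 4 not called in FR (edgeR), with a median log2 fold change of −0.27. Thus 90% were called, 62.5% lower and 27.5% higher, against 70.1%, 35.5% and 34.6% of all tested genes. Part of these genes was already counted in the lists above. Of the 63 outside those lists, 31 could be tested, with 90.3% called, 58.1% lower and 32.3% higher, and the genes named here are from this set. Some are secreted proteins with a domain like that of the binding proteins. Ccn3, of the CCN family of matricellular proteins, was at 14.8 ± 0.645 CPM in FR and 145 ± 5.28 CPM in WT (log2 fold change −3.29 ± 0.05 SE). Crim1, a membrane protein with an IGFBP-like domain, rose to 117 ± 1.18 CPM in FR, against 71.6 ± 0.614 CPM in WT. Fbn1, the microfibril protein fibrillin-1, was at 7.64 ± 0.912 CPM in FR and 106 ± 1.30 CPM in WT. Phip, which binds insulin receptor substrate 1, rose to 170 ± 4.68 CPM in FR, against 119 ± 2.82 CPM in WT (SD, n = 3 each).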
